A study of Drosophila melanogaster with 3 samples.

Results

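Cell death genes of the fly were followed across the 3 RNA libraries of a study on Aac11, the Drosophila melanogaster ortholog of mammalian API5 (apoptosis inhibitor 5). The group held 10 of the 13990 genes in the deposited tables. It comprised all 7 caspase genes of the fly (Dronc, Dredd, dream, Drice, Dcp-1, decay and Damm), the Bcl-2 family genes Buffy and debcl, and AIF. Members were taken by gene symbol, with Dronc written Nc and Drice written Ice in the tables, and all 10 were found in both. The annotation now calls dream Strica, and it lists each of the 10 as protein-coding.

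Each group was 1 library. The Act control library carried the Actin5C-Gal4 driver, which is active in most tissues, and no hairpin in its label. The Act>Aac11-RNAi library carried the same driver with a UAS hairpin against Aac11 (Act-Aac11-IR). The remaining library has the label enGFP+Yki+Aac11-IR (the Yorkie library from here on), that is engrailed-GFP together with Yorkie and the hairpin, so that the control alone lacks the hairpin. In imaginal discs engrailed is known to be active in the posterior compartment. Larvae were in the wandering stage of the last instar and were pooled, with 10 to 20 animals for each of the Act genotypes. Rearing was at 25 °C with 12 hours of light for every library. Neither an age in hours nor how many animals went into the Yorkie library is stated in the labels used here. The labels give wing disc cells as the source, but the protocol describes whole ground larvae. Markers of other tissues were present in the Act libraries, where the summed level of 9 fat body genes was 13880 and 10048 FPKM, compared with 177 FPKM in the Yorkie library. Aac11 itself was at 150 FPKM without the hairpin, 78.1 FPKM with Act>Aac11-RNAi and 117 FPKM in the Yorkie library, whose yki level was 4153 FPKM.

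FPKM (fragments per kilobase of transcript, scaled to library size) sets levels per length of transcript, so that different genes of a library can be compared. The steps between low values placed the depth at about 6.1, 31.2 and 17.9 (in units of 1000000 fragments) for Act control, Act>Aac11-RNAi and the Yorkie library. With 1 library per group there was no replicate check, no p-value was formed, and every difference below describes these libraries. The 95% intervals are exact and cover counting error only. The Yorkie library was normalized in a table of its own, so no ratio was taken across the tables, and levels set side by side across them carry that limit. The larvae hold many tissues, and in such RNA fewer cells of a type and less RNA per cell cannot be told apart.

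Caspases are cysteine proteases made as inactive precursors. Initiator caspases are activated on adaptor complexes, and then cleave and activate the effector caspases, which cut the proteins of the cell. In the fly, the initiator Dronc is activated on the Dark (Ark) apoptosome, and DIAP1, the product of th, restrains both Dronc and the effectors until the IAP antagonists reaper, hid and grim displace it. Bcl-2 family proteins act on internal membranes, mitochondria among them, and have a smaller part in fly cell death than in mammals. Larval caspases also serve tissue remodelling at metamorphosis, which the steroid hormone ecdysone starts, and the individualization of spermatids in the testis.

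Between the Act libraries, Damm was at least 2-fold higher with Aac11 RNAi, AIF was at least 2-fold lower, and the other 8 of the 10 genes lay within 2-fold. All 10 had a mean of at least 1 FPKM over the Act libraries and so passed the filter on low values. Among the 11330 genes that passed, 3.7% were past 2-fold on the higher side and 17% on the lower. Of the 7566 that also had 1 FPKM or more in the Yorkie library, as Damm and AIF did, 2.7% and 3.22% were. A single member each way is too few to set apart from these shares. The log2 ratio, taken of FPKM + 1 with the RNAi library over the control, was positive for 6 of the 10 genes, beside 47.4% of all genes that passed. The median was 0.20 over the members and -0.03 over all genes that passed. When upper quartiles of the libraries were equated, which moved the median of all genes to 0.19, 8 of the 10 were positive. Of the 7 caspases, 5 measured higher and 2 lower in the RNAi library as deposited.

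**Figure D1:**
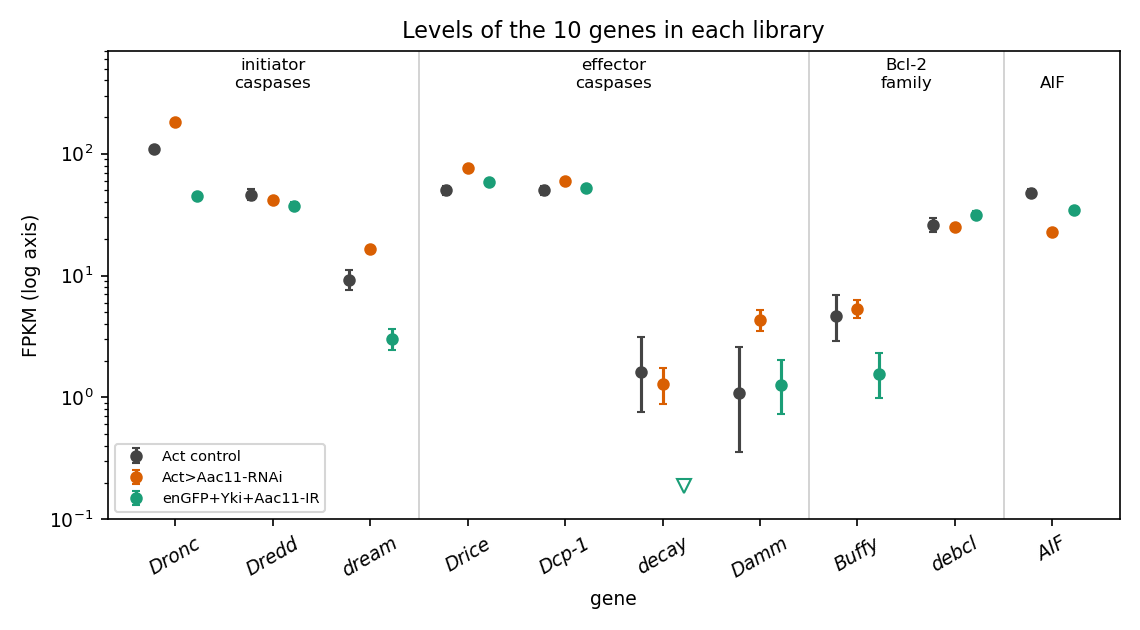
FPKM of the 10 genes (log axis) in the Act control (grey), Act>Aac11-RNAi (orange) and Yorkie (green) libraries, 1 point per library, with bars for the 95% counting interval. Dronc is the highest of the 10 genes in both Act libraries, Drice in the Yorkie library, and the open triangle marks decay, listed at 0, at the level of 3 fragments.

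The initiator caspase Dronc, on which most developmental cell death in the fly depends, was the most abundant of the 10 genes in both Act libraries. It measured 110 FPKM in the control, 184 FPKM with Act>Aac11-RNAi and 45.0 FPKM in the Yorkie library, on 1199, 10381 and 1450 fragments. The RNAi library was thus the high one and the Yorkie library the low one. The RNAi level was 1.68 times the control level (95% counting interval 1.58 to 1.78), with a log2 ratio of 0.74. Dronc (FBgn0026404) spans 9968479 to 9971002 of chromosome 3L (plus strand, Release 6), with 1 annotated transcript of 2015 nt and 2 exons. Its gene is known as a target of ecdysone signalling. Within the libraries it ranked at percentile 91.2, 95.7 and 81.9 of all genes.

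Dredd, an initiator resembling mammalian caspase-8, acts in the Imd immune pathway, where it cleaves Imd and Relish. Its level was 46.1 FPKM in the control, 41.7 FPKM with Act>Aac11-RNAi and 37.6 FPKM in the Yorkie library. The Act values were close, at a ratio of 0.904 (0.810 to 1.01), and the counting interval included 1. Under the scaling that equates upper quartiles its log2 ratio turned from -0.14 to 0.09. Dredd (FBgn0020381) is on chromosome X from 633622 to 635545, minus strand, with 4 transcripts of 1613 to 1689 nt, and is the 1 X-linked member.

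The initiator dream (Strica, FBgn0033051), whose protein has a long prodomain and overlaps with Dronc in some cell deaths, measured 9.25 FPKM in the control, 16.4 FPKM with Act>Aac11-RNAi and 3.02 FPKM in the Yorkie library. In FPKM it was, like Dronc, highest in the RNAi library and lowest in the Yorkie library. By percentile among all genes the control was lowest, at 40.0, beside 55.7 with Act>Aac11-RNAi and 49.4 in the Yorkie library. The RNAi level was 1.77 times the control (1.45 to 2.17), and the log2 ratio was 0.76. Its 2 transcripts, of 2163 and 2720 nt, lie on chromosome 2R from 6020311 to 6023144, minus strand, and 385 nt of its exons, 14.2%, overlap exons of Pngl on the other strand. Pngl measured 48.0 and 53.3 FPKM in the Act libraries. Neither a strand setting nor the authors' counting across overlapping genes is stated in the labels, so that reads in the overlap cannot be assigned here.

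Among the effectors, Drice does most of the killing in somatic cells and is cleaved by Dronc. Drice measured 50.0 FPKM in the control, 75.7 FPKM with Act>Aac11-RNAi and 59.0 FPKM in the Yorkie library, on 520, 4072 and 1807 fragments. The RNAi library was the high one, at 1.51 times the control (1.38 to 1.66) and a log2 ratio of 0.59. Drice (FBgn0019972) has 1 exon and 1 transcript of 1927 nt, on chromosome 3R from 29799658 to 29801584, plus strand.

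Dcp-1, a close relative of Drice that acts in the germline and in autophagy on starvation, measured 50.0 FPKM in the control, 59.3 FPKM with Act>Aac11-RNAi and 51.9 FPKM in the Yorkie library. Its level was nearly the same as that of Drice in the control and below it in the other libraries. The RNAi level was 1.19 times the control (1.08 to 1.31). Dcp-1 (FBgn0010501; chromosome 2R, 23551313 to 23553547, plus strand) shares 239 nt of exon, 13.7% of its length, with pita on the opposite strand. The level of pita was 24.8 and 22.1 FPKM in the Act libraries and 51.6 FPKM in the Yorkie library.

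The other effectors, decay and Damm, were under 5 FPKM in all 3 libraries. The level of decay, which resembles mammalian caspase-3 in sequence, was 1.61 FPKM in the control, 1.29 FPKM with Act>Aac11-RNAi and listed at 0 in the Yorkie library, where 3 fragments would correspond to 0.187 FPKM. On 9 and 36 fragments, the ratio of 0.798 had an interval from 0.363 to 1.81, so that no difference was detectable at this depth. The gene (FBgn0028381) is on chromosome 3R from 16499058 to 16501050, minus strand, with 1 transcript of 1111 nt.

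Damm had the highest ratio of the 10 genes. It measured 1.09 FPKM in the control, 4.29 FPKM with Act>Aac11-RNAi and 1.26 FPKM in the Yorkie library. In FPKM the RNAi library stood above the other libraries. By percentile among all genes the Yorkie library was highest, at 46.2, beside 20.4 in the control and 31.6 with Act>Aac11-RNAi. Counted over the shorter Damm transcript, the FPKM values rest on 5, 102 and 17 fragments, and over the longer on 12, 244 and 41. The ratio without a pseudocount was 3.94, with a counting interval from 1.62 to 12.3, and the log2 ratio of FPKM + 1 was 1.34. With a pseudocount of 5 FPKM the log2 ratio was 0.61, under 2-fold. Damm (FBgn0033659) has transcripts of 964 and 2028 nt on chromosome 2R from 11864112 to 11866383, minus strand. Of its exonic length, 600 nt or 29.6% overlap CG42531 on the other strand. CG42531 went the opposite way, at 10.1, 3.15 and 0.163 FPKM in Act control, Act>Aac11-RNAi and the Yorkie library, in that order, and reads in the overlap cannot be assigned to one gene or the other. Markers of some other tissues were higher in the same library as Damm. They included all 3 midgut genes past the filter. These were LysB, LysC and LysD, of 1 gene family, named after their values were seen. Each other listed midgut gene was under 1 FPKM in every library, with differences between the Act libraries in both directions. The full list of 12 summed to 39.3 and 142 FPKM in the Act libraries and 0.0809 FPKM in the Yorkie library. In Act control, Act>Aac11-RNAi and the Yorkie library, 5, 2 and 11 of the 12 were listed at 0. Of 11 neuron genes past the filter, 3 passed 2-fold on the higher side and 0 on the lower, beside 3.7% and 17% of all genes that passed. The full neuron list of 12 summed to 84.0, 141 and 12.3 FPKM. The part of these tissues in the Damm difference was not tested.

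**Figure D2:**
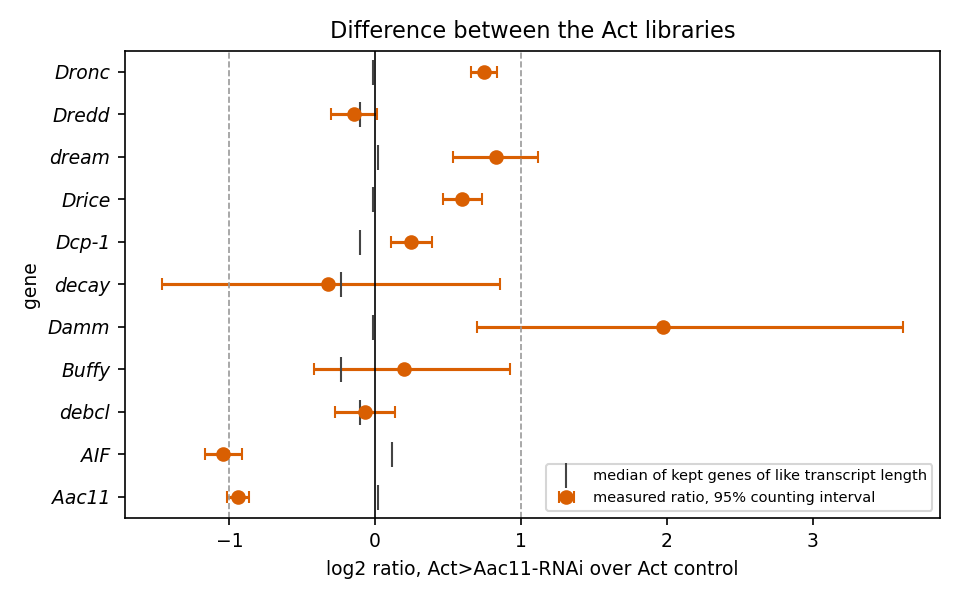
Log2 ratio of FPKM without a pseudocount, Act>Aac11-RNAi over Act control, for the 10 genes and Aac11, with 95% counting intervals. Black ticks are the medians of genes in the same of 10 bins of transcript length, and dashed lines mark 2-fold. The intervals of Dronc, dream, Drice, Dcp-1 and Damm lie above 0, that of AIF lies below it, and the other 4 members span it.

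For the Bcl-2 family genes, the counting intervals of the ratio between the Act libraries included 1. The gene debcl, which promotes cell death when overexpressed, measured 26.2 FPKM in the control, 24.9 FPKM with Act>Aac11-RNAi and 31.4 FPKM in the Yorkie library. That ratio was 0.951 (0.828 to 1.10), and its log2 value turned from -0.07 to 0.06 with sums set equal. Buffy, which opposes death in several settings, measured 4.69 FPKM in the control, 5.37 FPKM with Act>Aac11-RNAi and 1.55 FPKM in the Yorkie library, and the Act ratio was 1.14 (0.747 to 1.90). The gene debcl (FBgn0029131) lies on chromosome 2R from 6648654 to 6652842, plus strand, and Buffy (FBgn0040491) on 2R from 11679492 to 11688557, plus strand. In every library debcl RNA exceeded Buffy RNA. The ratio of debcl to Buffy, which does not depend on the scaling of a library, was 5.59 in the control (3.69 to 9.13), 4.64 with Act>Aac11-RNAi (3.88 to 5.56) and 20.3 in the Yorkie library (13.4 to 32.1). The interval in the Yorkie library lay above both others, and those of the Act libraries overlapped.

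AIF was the member past 2-fold on the lower side. AIF encodes a mitochondrial flavoprotein that maintains the respiratory chain, and in mammals it also takes part in DNA breakdown when released from mitochondria. It measured 47.3 FPKM in the control, 23.0 FPKM with Act>Aac11-RNAi and 34.6 FPKM in the Yorkie library, on 718, 1797 and 1544 fragments over its shortest transcript. The RNAi library was the low one. The ratio was 0.486 (0.445 to 0.530), and the log2 ratio of FPKM + 1 was -1.01, just past 2-fold. All 3 rescalings tried brought it inside 2-fold, to -0.96 with the median ratio set to 0, -0.88 with sums set equal and -0.79 with upper quartiles set equal. AIF (FBgn0031392) lies on chromosome 2L from 2151754 to 2155389, plus strand, with 3 transcripts of 2709 to 2990 nt. The annotation has no other gene overlapping it.

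Testis RNA was lower in the same library as AIF. Of 41 testis genes, 39 were at least 2-fold lower and 0 higher in the RNAi library, beside 17% and 3.7% of all genes that passed the filter. Their median log2 ratio was -1.88. The summed level of the 41 was 10164 FPKM in the control, 2724 FPKM with Act>Aac11-RNAi and 22.2 FPKM in the Yorkie library, where 16 were listed at 0. AIF was at 34.6 FPKM in that library. Among the respiratory chain genes, all 37 listed subunit genes had negative log2 ratios, beside 52.6% of all genes that passed the filter, with a median of -0.35. None of the 37 was past 2-fold, and the lowest log2 ratio, -0.82, belonged to CG10219 (SdhD), a subunit of succinate dehydrogenase, at 97.0 and 54.6 FPKM. The median was -0.12 with upper quartiles set equal and -0.11 after subtracting the median of genes of like transcript length. Of 11 muscle genes, 3 were past 2-fold on the lower side and 0 on the higher, beside 17% and 3.7% of all genes that passed. The muscle list had a median of -0.42. The summed level of the 11 muscle genes was 1064 FPKM in Act control, 851 FPKM with Act>Aac11-RNAi and 521 FPKM in the Yorkie library, with none listed at 0. Most of the Yorkie sum came from Tm1, named after its values were seen, at 267, 324 and 491 FPKM. The median level of the 11 was 71.0 FPKM in Act control, 44.9 FPKM with Act>Aac11-RNAi and 1.11 FPKM in the Yorkie library. The part of testis and muscle RNA in the AIF difference was not tested.

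Ratios between the Act libraries rose with transcript length over all genes, from a median of -0.37 in the shortest of 10 equal bins of genes to 0.38 in the longest. Bins were set by the longest annotated transcript of a gene, so that Damm was placed by its transcript of 2028 nt and not by that of 964 nt. Against the median of their own bin, Dronc was higher by 0.76, dream by 0.74, Drice by 0.60, Dcp-1 by 0.35 and Damm by 1.36 on the log2 scale. For AIF the difference was -1.13. For Buffy, decay, Dredd and debcl it was 0.39, 0.04, -0.04 and 0.03.

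The makeup of caspase RNA can be compared across all 3 libraries, since a share within a library does not depend on its scaling. Dronc made up 40.9% of the summed FPKM of the 7 caspases in the control, 48.0% with Act>Aac11-RNAi and 22.8% in the Yorkie library. Dredd made up 17.2%, 10.9% and 19.0%. Drice accounted for 18.7%, 19.8% and 29.8%, and Dcp-1 for 18.7%, 15.5% and 26.2%. Together the 3 initiators held 61.6% and 63.2% in the Act libraries but 43.3% in the Yorkie library, and the 4 effectors held 38.4%, 36.8% and 56.7%. Low members added little. The share of dream was 3.46%, 4.29% and 1.53%, that of Damm 0.407%, 1.12% and 0.639%, and that of decay 0.603% and 0.336% in the Act libraries.

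**Figure D3:**
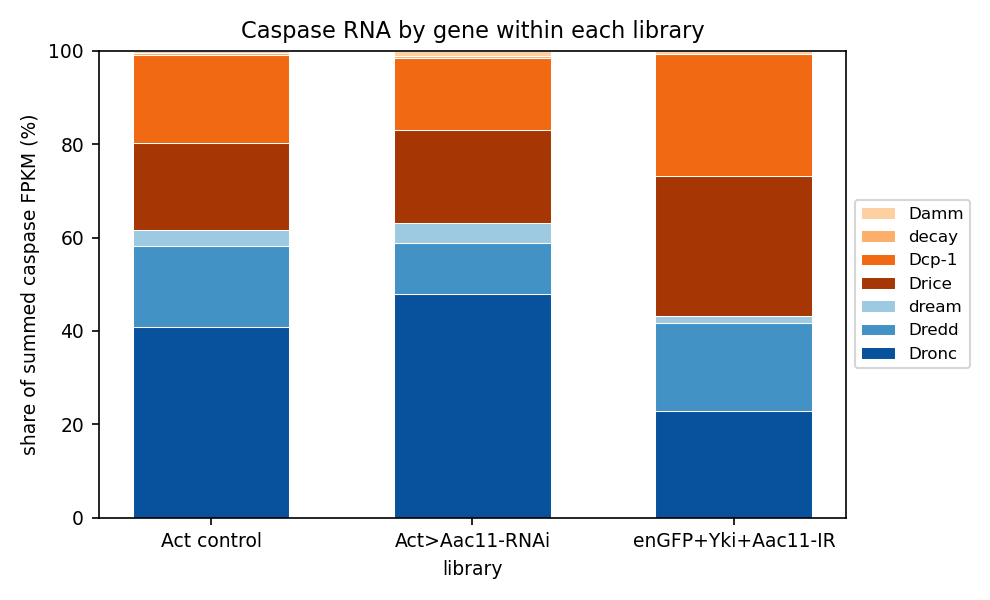
Share of each caspase gene in the summed FPKM of the 7 caspases (%), 1 bar per library, with initiators in blue and effectors in orange. Initiators hold 61.6% and 63.2% in the Act libraries and 43.3% in the Yorkie library.

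Ratios between pairs of genes within a library carry counting intervals. Dronc exceeded Drice 2.19 times in the control (1.98 to 2.44) and 2.43 times in the RNAi library (2.34 to 2.52), intervals that overlap. In the Yorkie library the ratio was 0.764 (0.712 to 0.818), so Drice RNA was the more abundant. Dronc over Dredd was 2.37 in the control (2.12 to 2.67), 4.40 with Act>Aac11-RNAi (4.19 to 4.63) and 1.20 in the Yorkie library (1.10 to 1.30), and these intervals were apart from each other. Drice over Dcp-1 was 1.00 in the control (0.880 to 1.14), 1.28 with Act>Aac11-RNAi (1.22 to 1.34) and 1.14 in the Yorkie library (1.06 to 1.22). Of these intervals only that of the control included 1, and that of the RNAi library lay above it. The Yorkie library differed from the Act libraries in genotype and in tissue markers, including the testis and fat body genes above. The summed level of 15 wing disc genes was 315 and 388 FPKM in the Act libraries and 891 FPKM in the Yorkie library. Genotype and tissue cannot be told apart in this comparison.

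Ranked by level in the control, the order was Dronc, Dcp-1, Drice, AIF, Dredd, debcl, dream, Buffy, decay and Damm. The levels of Dcp-1, Drice, AIF and Dredd, between 50.0 and 46.1 FPKM, had overlapping counting intervals there. The interval of decay overlapped those of both Buffy and Damm. In the Yorkie library the order was Drice, Dcp-1, Dronc, Dredd, AIF, debcl, dream, Buffy, Damm and decay. The percentile among all genes was 86.3 for Drice, 84.4 for Dcp-1, 78.5 for Dredd, 76.9 for AIF and 75.2 for debcl in the Yorkie library, and 46.2 for Damm.

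Genes that act with the members were read from 10 lists, which hold 139 different genes past the filter on low values. At 2-fold, 0 of the 139 were higher and 7 were lower in the RNAi library (5.04%), beside 3.7% and 17% of all genes that passed. Their median log2 ratio was -0.10. Each of the 7 lower genes was under 10 FPKM in the Yorkie library, but the median of all 13990 genes there was only 3.52 FPKM. Some settings moved a list's count by 1 gene. On the higher side the Imd list had 1 gene with a pseudocount of 0.1 FPKM or with upper quartiles equated, and the autophagy list had 1 with sums set equal or with upper quartiles equated.

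Platforms and adaptors that activate caspases had 0 of 7 genes higher and 1 lower, with a median of 0.06. Ark (Dark), the apoptosome scaffold of Dronc, measured 20.4, 24.9 and 20.0 FPKM in Act control, Act>Aac11-RNAi and the Yorkie library, in that order. Fadd, the adaptor of Dredd, listed as BG4, measured 6.08, 7.70 and 5.86 FPKM, and imd, which recruits it, 37.5, 29.2 and 16.3 FPKM. The 1 lower gene was Cyt-c-d, the cytochrome c needed for caspase activation in spermatids, at 179 and 45.3 FPKM and at 0.510 FPKM in the Yorkie library. Its somatic paralog Cyt-c-p, named after its values were seen, measured 80.0 and 83.3 FPKM.

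Inhibitors of caspases had 0 of 8 genes past 2-fold in either direction. The main inhibitor gene th (DIAP1) measured 280, 296 and 279 FPKM, and Iap2, which acts in Imd signalling and restrains Drice, 47.2, 38.5 and 39.0 FPKM. Bruce, a large ubiquitin-conjugating inhibitor, had the largest log2 ratio of this list, 0.45, at 14.7 and 20.5 FPKM. The levels of th thus exceeded those of Dronc in every library.

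Among IAP antagonists and death inducers 0 of 11 genes were higher and 1 was lower. The antagonist genes rpr (reaper), W (hid) and grim measured 58.5 and 76.9, 54.4 and 86.6, and 6.94 and 6.55 FPKM in the Act libraries. In the Yorkie library rpr was at 13.6 FPKM, W at 30.1 FPKM and grim was listed at 0. The damage response regulator p53 measured 11.8, 10.6 and 16.9 FPKM. The lower gene was HtrA2, a mitochondrial protease, at 28.1 and 10.7 FPKM and at 7.11 FPKM in the Yorkie library.

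**Figure D4:**
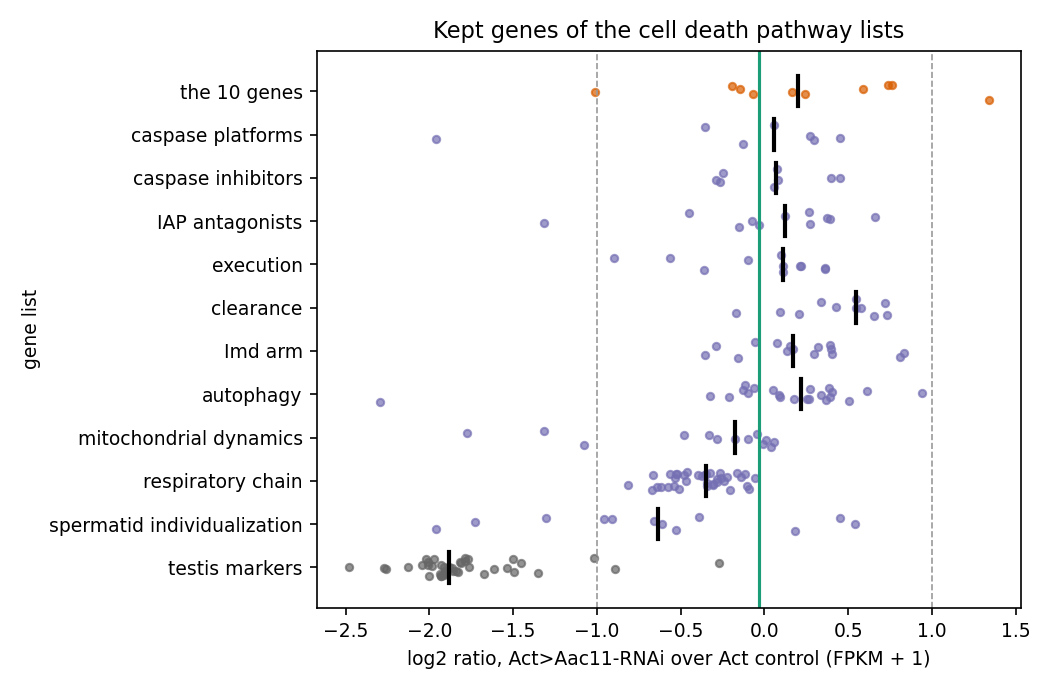
Log2 ratio of FPKM + 1, Act>Aac11-RNAi over Act control, with 1 point per gene that passed the filter and a black bar at each list's median. The green line is the median of all genes that passed, -0.03, and dashed lines mark 2-fold. Testis markers have a median of -1.88, and the 10 genes one of 0.20.

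Downstream lists held few genes past 2-fold. Nucleases, their inhibitors and caspase substrates had 0 of 11 either way and a median of 0.11, and Drep-3, of the DNA fragmentation factor family, had the largest difference at 8.99 and 4.38 FPKM. These values are more than 2-fold apart as measured and come inside 2-fold through the pseudocount of 1 FPKM, and with one of 0.1 FPKM the list had 1 gene lower. Genes for the recognition and engulfment of dying cells had 0 of 11 past 2-fold and a median of 0.55. Of the 11, 10 had positive log2 ratios, beside 47.4% of all genes that passed the filter. Their largest log2 ratio, 0.73, was that of mbc, a regulator of Rac, at 15.3 and 26.1 FPKM. Less the median of genes of like transcript length, the list median was 0.35. Markers of hemocytes, the blood cells that engulf dying cells, had 0 of 8 past 2-fold and a median of 0.17, and crq stands in both lists. The Imd genes around Dredd had 0 of 15 past 2-fold and a median of 0.17, and the receptor gene PGRP-LC measured 37.9 and 68.3 FPKM.

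Autophagy genes, a process in which Dcp-1 takes part, had 0 of 22 higher and 1 lower, with a median of 0.22. The lower gene was Atg8b, at 113 and 22.2 FPKM and listed at 0 in the Yorkie library. Genes of mitochondrial fusion, fission, channels and quality control had 0 of 13 higher and 3 lower, with a median of -0.18. Over all genes that passed the filter, 3.7% were higher and 17% lower. In this list the lower genes were HtrA2, the adenine nucleotide carrier gene Ant2, at 67.8 and 19.1 FPKM, and park (parkin), at 19.2 and 8.59 FPKM. The gene park was named after its values were seen. The median of this list was 0.05 when upper quartiles were equated.

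Regulators of caspases in spermatid individualization had 3 of 12 genes lower and 0 higher, beside 17% and 3.7% of all genes that passed the filter. The list median was -0.64, the lowest of the 10 pathway lists. The lower genes were Cyt-c-d, soti and ntc (nutcracker), the last named after its values were seen. The gene soti, an inhibitor of the ubiquitin ligase that permits caspase activation there, measured 185 and 55.1 FPKM. The level of ntc was 67.4 and 26.6 FPKM. In the Yorkie library soti was listed at 0. The 3 lower genes were lower in the same library as the testis markers above. Dronc and Drice, which act in this process and also in somatic cells, measured higher in that library. The part of testis RNA in these differences was not tested.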

How the data were processed

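The authors deposited FPKM values of 13990 genes, with the Yorkie library in a table apart from that of the Act libraries. Build dm6 and the tools Cuffdiff 2.2.1, TopHat2 2.0.12 and CASAVA 1.4 are listed, without roles, in the submitters' processing notes. Annotation, strand setting and scaling are stated nowhere in them. Per the labels' protocols, a TruSeq library was made from 4 µg of total RNA after ribosomal RNA depletion.

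A filter kept the 11330 genes whose FPKM averaged 1 or more over the Act libraries. The log2 ratio used a pseudocount of 1 FPKM, and a gene was called at 2-fold. An added pseudocount understates ratios of low genes. There were no replicates and no tests. Depth was fitted to the steps of low FPKM values in 4251 genes with 1 transcript longer than 1000 nt, where 81.3%, 81.8% and 87.7% of values lay within 0.2 of a whole fragment in the 3 libraries (40% by chance). Fragments were read back with the shortest annotated transcript, less a fitted offset of 220, 205 and 210 nt, and 95% intervals are exact binomial or Poisson. Amplified fragments are not independent molecules, so these cover counting error only. Transcripts and coordinates came from Ensembl 115 (Release 6, which shares dm6 coordinates). Names were matched with Ensembl and RefSeq tables for 98.2% of symbols. The step and ratio code was run on simulated data, which held only genes with 1 transcript longer than 1000 nt and counting error alone. That run does not cover members with several transcripts, such as Damm.

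Members and lists were chosen with earlier results of these data known. Named genes were all members, Aac11 and yki, up to 2 called genes each way per list or, with none, the 1 of largest ratio, and a set of direct partners (Ark, th, Iap2, Fadd, imd, rpr, W, grim and p53). Genes overlapping members were also named. Alternatives were other pseudocounts, filters and scalings, and ratios less the median of 10 bins of transcript length. Computation used Python 3.11.15, pandas 2.3.3 and scipy 1.17.1.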

Additional observations from a re-analysis of the deposited data

How the results depend on the processing

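No paired analysis was possible because each group has 1 library, and no library could be left out. Of 16 recounts of members past 2-fold, 10 were unchanged. The higher count went from 1 (Damm) to 0 with a pseudocount of 5 FPKM or a filter at 5 FPKM, which removes Damm. The lower count went from 1 (AIF) to 0 with a pseudocount of 5 FPKM and with each of 3 rescalings (median ratio set to 0, sums set to 1000000, upper quartiles set equal). Over all genes the 419 higher became 245 with a pseudocount of 5 FPKM, 672 with upper quartiles set equal and 204 when genes under 1 FPKM in the Yorkie library were left out. The 1921 lower became 244 in that last set, and stayed between 1486 and 2068 under the other settings. With upper quartiles set equal, higher genes made up 27.7% of calls, against 17.9% as deposited, and the median of all genes was 0.19, so that ratios are read against that shift. In the Yorkie-restricted set they made up 45.5%.

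Over pseudocounts, rescalings and length correction, log2 ratios ran from 0.72 to 0.97 for Dronc, 0.59 to 0.98 for dream, 0.55 to 0.82 for Drice, 0.23 to 0.47 for Dcp-1, 0.61 to 1.88 for Damm, 0.10 to 0.39 for Buffy and -1.13 to -0.79 for AIF. Those of Dredd (-0.15 to 0.09), debcl (-0.07 to 0.16) and decay (-0.31 to 0.04) crossed 0. The control was the shallowest library, and it limits Damm and decay, with 5 and 9 fragments there. Taking shares over all 10 members lowers every caspase share above 0 by construction, and 15 of 21 moved by more than counting error. Percentiles taken among genes above 0 are likewise lower by construction.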
